A study of Glycine max with 2 samples.

Results

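The 1000 chromatin regions described here are the peaks of the ATAC library that were most open in embryo nuclei relative to all other nuclei of the cotyledon-stage soybean seed, out of 119743 peaks called in the library. A peak is a stretch of the genome where the transposase of the ATAC assay inserted often, which happens where DNA is not covered by nucleosomes. The embryo group consisted of 786 nuclei in which the RNA of Glyma.17G045800, Glyma.09G029400 and Glyma.11G176200 summed to at least 5 unique molecular identifiers (UMIs, counts of captured RNA molecules) and at least 20 per 10000 UMIs of the nucleus. Fragments were summed per peak in odd-numbered nuclei, 389 of the embryo group and 3929 others, and scaled to FPM, fragments per 1000000 peak fragments of the same nuclei. Of the 55664 peaks with at least 200 fragments in these nuclei, the 1000 with the highest ratio of embryo group to other nuclei, after 1 was added to both levels, became members. Every level below was measured in the even-numbered nuclei, 397 of the embryo group and 3921 others, which took no part in that choice.

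The nuclei came from about 50 pooled seeds of the cultivar Williams 82, all of 1 genotype, and gave 1 RNA and 1 ATAC library from the same barcodes. Nuclei of 1 library are not replicates, so no p-value is given. Intervals are 95% intervals for counting error only, and a peak is counted as more open where its ratio, with 1 added to both levels, was at least 2. Nuclei per seed, and therefore differences between seeds, cannot be recovered from the pool.

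The soybean seed holds an embryo and an endosperm, the products of double fertilization, inside a maternal seed coat. At the cotyledon stage the embryo has set out its axis and seed leaves and is entering the phase in which it builds up oil and protein. LEC1, ABI3 and FUS3 are transcription factors that direct this phase in Arabidopsis, and gibberellin, a growth hormone, is made in steps catalyzed by the products of GA1, GA2, GA3 and KAO1. Gene names here are those of the closest Arabidopsis gene in the tables of the study, and Glyma.09G029400, 1 of the genes that defined the embryo group, is KAO1.

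The embryo group carried embryo RNA beyond the genes that defined it. A list of 7 genes of the embryo proper, none of them in the rule, stood at 1923 CPM (UMIs per 1000000 UMIs) in the embryo group, against 131.9 CPM in other nuclei, and its genes were 9.90 to 26.1 times as high. The list includes a pair of YAB1 genes, which pattern the faces of lateral organs in Arabidopsis, and GA1, the first committed step of gibberellin synthesis. These genes had been picked from RNA of the same nuclei, so their height in the group is no independent evidence. The vascular genes of the seed coat taken here are 4 bZIP9 and 2 SWEET13 genes, active in phloem parenchyma of Arabidopsis. They stood at 398.7 CPM in the embryo group, against 489.5 CPM in other nuclei. Outer integument genes stood at 651.0 CPM, against 2587 CPM, endosperm genes at 368.3 CPM, against 920.3 CPM, and seed coat epidermis genes at 284.0 CPM, against 1076 CPM. Such pooled levels do not tell which nuclei hold this RNA. Median depth was 11572 ATAC fragments per nucleus in the embryo group, against 7590 in other nuclei, and 82.6% of the fragments, against 78.5%, lay in peaks. The scaling by peak fragments takes up that difference, and its part in the ratios beyond this was not tested.

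In odd-numbered nuclei, where the members were picked, the ratio of a member ran between 5.84 and 2.14 with a median of 2.53. These values are what the rule used and are given as a description. The members just inside the limit, ranked 998, 999 and 1000, had odd-numbered ratios of 2.138, 2.137 and 2.136. The peaks just outside it, next in rank, had ratios of 2.135, 2.135 and 2.135. In even-numbered nuclei the same peaks had ratios of 1.91, 2.67 and 1.95 inside the limit and 2.47, 2.55 and 1.99 outside it. The limit therefore does not separate peaks that differ, and the next 1000 peaks in rank still had a median ratio of 1.92 in the even-numbered nuclei, with 422 of 1000 past 2.

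In the held-out nuclei the members stayed more open in the embryo. All 1000 were higher in the embryo group than in other nuclei, where 45.7% of the tested peaks were, and in 1000 of 1000 the interval of the ratio lay above 1. A ratio of at least 2 was reached by 883 members, against 2.81% of all 55664 peaks, and a ratio of at least 3 by 278, against 0.505%. The median member was 2.61 times as open, with an interquartile range of 2.24 to 3.06, and 63 members were at least 4 times as open, against 0.113% of all tested peaks. A median peak of all those tested had a ratio of 0.97. The members together took 2.29% of the peak fragments of the embryo group (2.28% to 2.31%), against 0.804% in other nuclei (0.801% to 0.807%), a ratio of 2.85 (2.83 to 2.87).

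**Figure D1:**
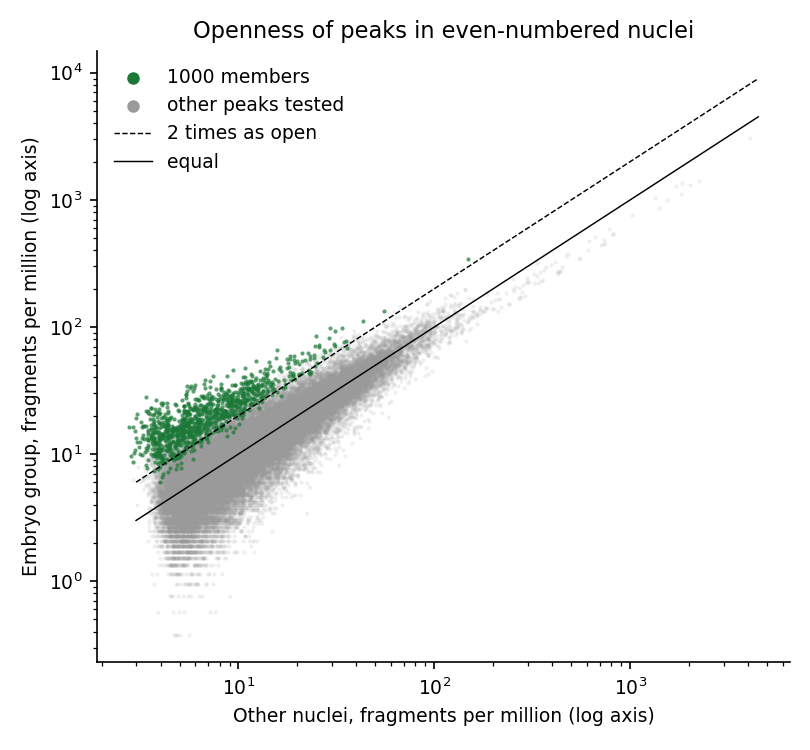
Level of each tested peak in the embryo group (vertical, FPM, log axis) against other nuclei (horizontal, same unit, log axis), even-numbered nuclei. The 1000 members (green) all lie above the line of equality and 883 of them reached the ratio of 2 once 1 was added to both levels.

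A typical member was a fairly strong peak in the embryo and a weak peak elsewhere. The median level was 19.3 FPM in the embryo group, against 6.23 in other nuclei, while over all tested peaks it was 10.4 in the embryo group, with an upper quartile of 18.4, and 10.3 in other nuclei. In the other nuclei 792 members lay below the median of the tested peaks, and in the embryo group 925 lay above it. The rule favours such peaks, because a high ratio is easier to reach from a low level in the other nuclei. The order of the members carried over as well as their direction: the 250 with the highest odd-numbered ratios had a median even-numbered ratio of 3.36, with 249 past 2, and the 250 with the lowest had a median of 2.21, with 177 past 2. Across the 1000 members the odd- and even-numbered ratios had a Spearman correlation of 0.71, a description over peaks that share both libraries. Over all 55664 tested peaks it was 0.78, so this agreement is not particular to the members. When the choice was repeated on the even-numbered nuclei alone, 725 of its 1000 peaks were members, which is 72.5% of either list.

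The peak with the highest odd-numbered ratio, chr4:22602729-22604183 (1455 bases, soybean build Wm82.a2.v1), was also the member with the highest ratio in the held-out nuclei. It had 149 fragments or 28.2 FPM (23.9 to 33.2) in the embryo group, against 134 fragments or 3.38 FPM (2.83 to 4.01) in other nuclei, a ratio of 8.35 (6.57 to 10.6) before and 6.67 after 1 was added. At least 1 fragment was seen in 25.2% of embryo nuclei and 2.73% of other nuclei. After each nucleus was thinned to 3000 peak fragments, which left out 62 embryo nuclei and 1257 other nuclei, the expected shares were 8.58% and 0.975%. Most embryo nuclei thus had no fragment at even the most embryo-biased peak at this depth, which does not mean that it was closed in them.

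The next members by the odd-numbered ratio behaved alike. The peak chr3:3363665-3365318 had 26.7 FPM in the embryo group, against 3.81 in other nuclei, a ratio of 7.01 (5.54 to 8.88). The peak chr17:11166753-11168942 had 34.5 FPM in the embryo group, against 5.45, a ratio of 6.33 (5.17 to 7.74). The peak chr17:38364212-38366138 had 25.02 FPM, against 4.01, a ratio of 6.24 (4.91 to 7.90). The lowest of these 10 members in the held-out nuclei was chr14:5307754-5311274, which was also the strongest, with 53.8 FPM in the embryo group and 12.2 in other nuclei, a ratio of 4.41 (3.79 to 5.11). The other 5 of these 10 had ratios between 5.26 and 5.80. None of the 10 fell below 4 with 1 added.

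The 10 members with the most fragments in the embryo were wide, and their ratios, before 1 was added, lay below those of the members just described. The widest member, chr13:38814258-38833474 (19217 bases), was also the one with the most fragments, 1794 or 340.1 FPM in the embryo group, against 5895 or 148.8 FPM in other nuclei, a ratio of 2.29 (2.17 to 2.41). It was followed by chr16:1565277-1577633, with 134.0 FPM in the embryo group, against 55.5, a ratio of 2.41 (2.21 to 2.63), and by chr2:44971621-44980464, with 110.7 FPM, against 43.1, a ratio of 2.57 (2.33 to 2.82). Higher ratios among these 10 were found at chr8:45732958-45741874, with 98.8 FPM in the embryo group and 29.3 in other nuclei (ratio 3.37, 3.03 to 3.74), and at chr1:51601407-51608016, with 85.1 and 24.8 (ratio 3.43, 3.06 to 3.84). The other 5 had ratios between 2.20 and 2.96. The narrowest member, chr10:43354177-43354804 (628 bases), had 60 fragments or 11.4 FPM in the embryo group, against 123 fragments or 3.10 FPM, a ratio of 3.66 (2.64 to 5.03).

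The 5 members with the lowest even-numbered ratios, picked by that value, had 32 to 48 fragments in the embryo group, or levels of 6.07 to 9.10 FPM in the embryo group and 3.99 to 5.88 in other nuclei. The lowest, chr2:48238481-48239809, had 6.07 FPM (4.15 to 8.56) in the embryo group, against 3.99 (3.39 to 4.66), a ratio of 1.52 (1.01 to 2.24). Its ratio in the odd-numbered nuclei had been 2.21 with 1 added, against 1.42 in the held-out nuclei. In all, 117 members stayed below 2, and 996 were at or above 1.5, against 8.82% of all tested peaks.

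To see where else in the seed the members were open, even-numbered nuclei outside the embryo group were sorted by marker lists with the same limits, leaving out 269 nuclei that met several lists. The 50 nuclei that met the embryo list alone, although they had missed the rule, had 2.68% of their peak fragments in the members (2.63% to 2.73%), which was 3.48 times (3.41 to 3.54) the share of the nuclei outside the group and the list. In them 829 members were at least 2 times as open as in those other nuclei, against 7.22% of the tested peaks. These nuclei were sorted by genes the rule did not use, and they took no part in the choice of the peaks. Across members the level in these nuclei and in the embryo group had a Spearman correlation of 0.75, a description over 1000 peaks of 1 library. It was not computed for all tested peaks or for other kinds of nuclei, so it shows no likeness particular to the embryo.

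Endosperm and seed coat nuclei showed no such opening. The members took 0.781% of the peak fragments (0.772% to 0.790%) in 234 nuclei of the endosperm list, against 0.770% in the remaining nuclei, and 0.705% in 893 nuclei of the outer integument list, against 0.791%. In 524 nuclei of the seed coat epidermis list the share was 0.659% (0.652% to 0.665%), against 0.794%. In 176 nuclei of the vascular list it was 0.758% (0.745% to 0.771%), against 0.772%. The number of members at least 2 times as open was 26 in endosperm nuclei, against 1.92% of tested peaks, 8 in outer integument nuclei, against 1.77%, 18 in epidermis nuclei, against 4.03%, and 51 in vascular nuclei, against 3.5%. Only 4 even-numbered nuclei met the endothelium list alone, too few to read.

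The list of 2 genes of the embryo surface, Glyma.02G111100 and Glyma.02G111200, gathered nuclei of unlike chromatin. Its 60 nuclei had 1.43% of their peak fragments in the members (1.41% to 1.46%), against 0.756% in the remaining nuclei, and 361 members were at least 2 times as open, against 3.21% of tested peaks. Of the 55 with at least 2000 peak fragments, 20 had a share of at least 2% and 31 a share under 1%, with few between. The 33 nuclei marked by Glyma.08G021700, taken as a further embryo type, had 1.01% (0.979% to 1.05%), against 0.769%, with 166 members past 2, against 6.22% of tested peaks, and 3 of 26 such nuclei had a share of at least 2%.

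**Figure D2:**
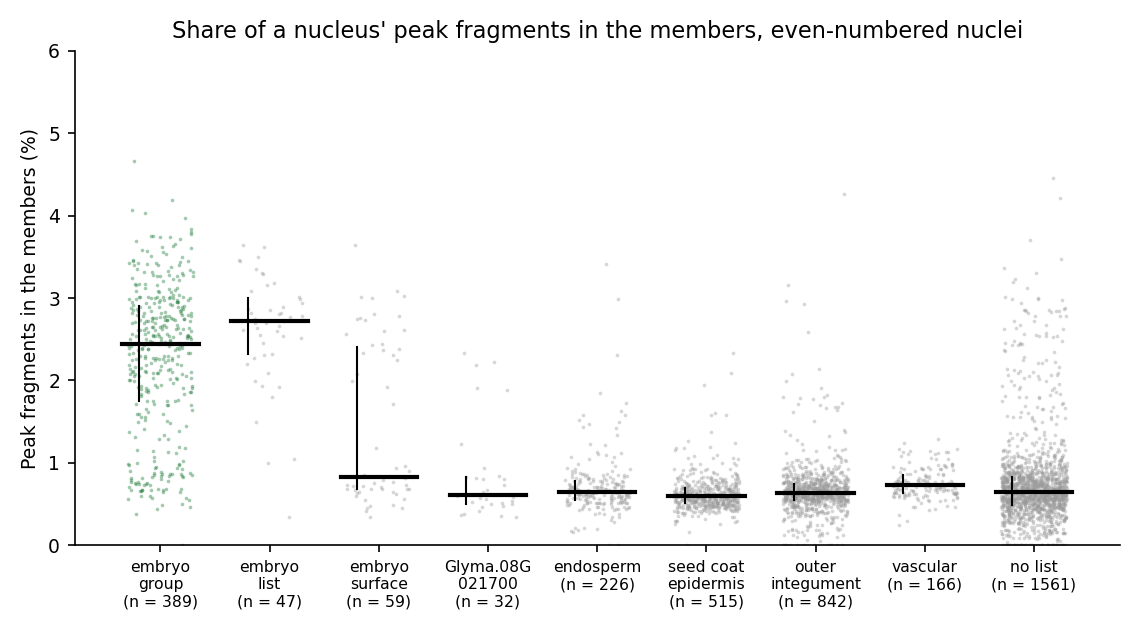
Share of a nucleus' peak fragments that fell in the members (vertical, percent) for even-numbered nuclei with at least 500 peak fragments, 1 point a nucleus, with the median (thick bar) and the interquartile range (thin bar). The embryo group (median 2.45%) and the nuclei of the embryo list outside it (median 2.72%) lie above the endosperm, epidermis, outer integument and vascular nuclei, whose medians are 0.653%, 0.596%, 0.639% and 0.731%.

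Single members followed the set with some exceptions. The peak chr4:22602729-22604183 had 27.8 FPM in the embryo-list nuclei (13 fragments), against 3.55 in endosperm (14 fragments), 1.36 in epidermis (9 fragments), 0.876 in outer integument (8 fragments) and 2.31 in vascular nuclei (4 fragments). The peak chr17:11166753-11168942 had 55.5 FPM in the embryo-list nuclei (26 fragments), against 4.57, 2.56, 3.83 and 2.89 in the same 4 kinds. The widest member, chr13:38814258-38833474, was the exception. It stood at 340.1 FPM in the embryo group and 414.4 in the embryo-list nuclei, but also at 395.8 in seed coat epidermis nuclei (2624 fragments), against 74.3 in endosperm, 60.7 in outer integument and 39.3 in vascular nuclei. The peak chr7:17973979-17981482 kept 82.3 FPM in the embryo group and 50.4 in outer integument nuclei, against 12.2 in epidermis nuclei.

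**Figure D3:**
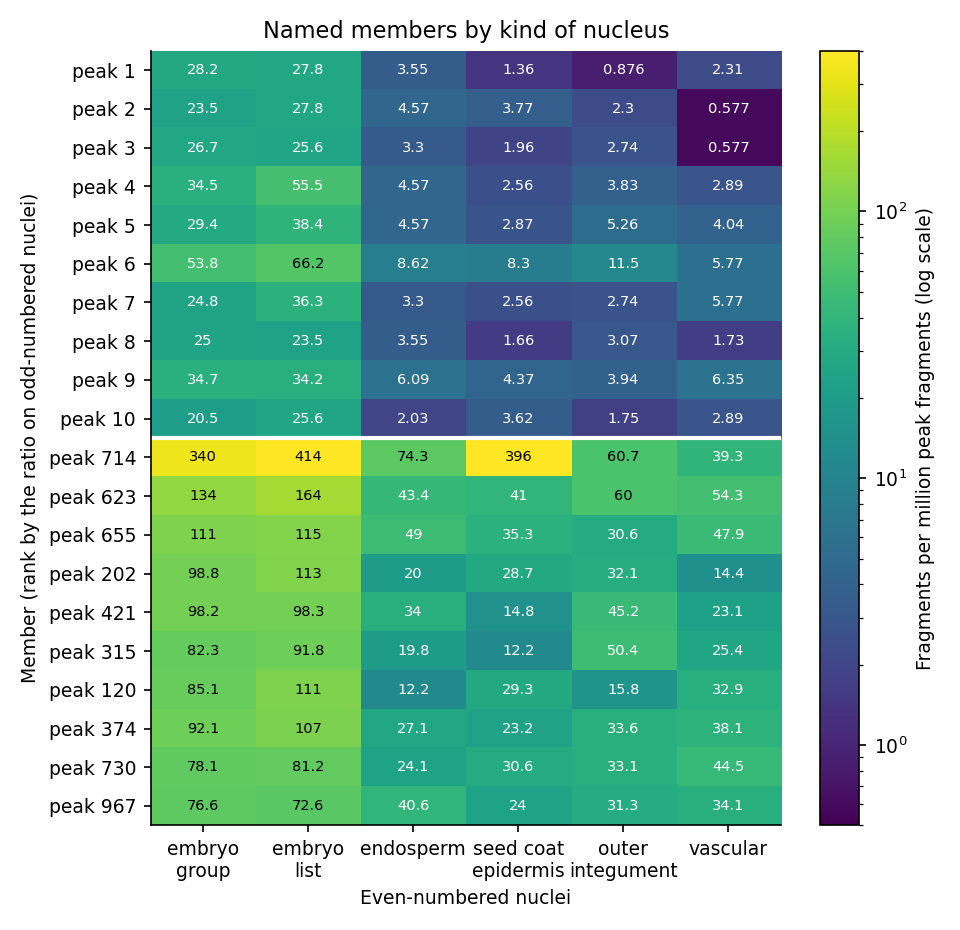
Level (FPM, log colour scale, printed in each cell) of the 10 members with the highest odd-numbered ratio (above the white line) and the 10 with the most fragments in the embryo group (below it) in even-numbered nuclei. The upper 10 are high in the embryo group and the embryo-list nuclei and low in the other 4 kinds, and peak 714, the widest member, is as high in seed coat epidermis nuclei as in the embryo.

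Nucleus by nucleus, the share of peak fragments in the members split the seed. It had a median of 2.45% and an interquartile range of 1.75% to 2.91% in 389 embryo nuclei with at least 500 peak fragments, against 0.647% and 0.525% to 0.800% in 3712 other nuclei. The share is set here beside the RNA of the genes in the rule as a description only. Nuclei of the embryo group occur only in the classes from 5 UMIs, so the series partly restates the contrast of the groups. The median share was 0.611% in nuclei with 0 UMIs of these genes, 0.652% with 1 UMI, 0.646% with 2 UMIs, 0.723% with 3 or 4 UMIs, 0.942% with 5 to 9 UMIs, 2.25% with 10 to 19 UMIs and 2.29% with 20 or more. Median depth increased along this series too, with 2502 RNA UMIs in the first class and 6887 in the last, and its part was not tested. Fragments of barcodes that were not called as nuclei, a measure of free DNA in the droplets, had 0.703% in the members (0.697% to 0.709%), which is within the interquartile range of the other nuclei.

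A high share was also found in nuclei outside the embryo group. Among even-numbered nuclei with at least 2000 peak fragments, 397 had a share of at least 2%, and 147 of them were outside the embryo group. Of these, 105 had fewer than 5 UMIs of the genes in the rule, and their median RNA depth, over all 147, was 2517 UMIs, against 3066.5 UMIs in the 250 nuclei of the group with the same share. The embryo list stood at 1849 CPM (1732 to 1973) in the 147 nuclei, against 43.3 CPM (39.7 to 47.2) in the 2126 other nuclei with a share of 0.5% to 1%. Between these, the list had 532.4 CPM in 62 nuclei with a share of 1.5% to 2% and 152.1 CPM in 127 nuclei with 1% to 1.5%, which puts chromatin and RNA of the same nuclei in the same order above 0.5%. Below that, 420 nuclei had 62.1 CPM (50.1 to 76.1). The 62 nuclei with 1.5% to 2% were deeper, with medians of 20836.5 ATAC fragments and 5371.5 UMIs, against 10768 and 2517 in the 147. Their endosperm list stood at 1424 CPM and their outer integument list at 1429 CPM. The part of depth and of mixed RNA in this order was not tested. The share is a continuous score: 28 other nuclei lay within 0.1 percentage points of 2%, and 179 within 0.1 of 1%.

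Lists of other tissues were lower in the 147 nuclei than in the 2126. Outer integument genes stood at 685.7 CPM, against 2896 CPM, seed coat epidermis genes at 363.0 CPM, against 1153 CPM, and endosperm genes at 310.6 CPM, against 967.3 CPM. Vascular genes stood at 169.4 CPM, against 546.9 CPM. The lists were not absent from the nuclei of high share, and how much of that is RNA from other cells in the droplet was not tested.

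**Figure D4:**
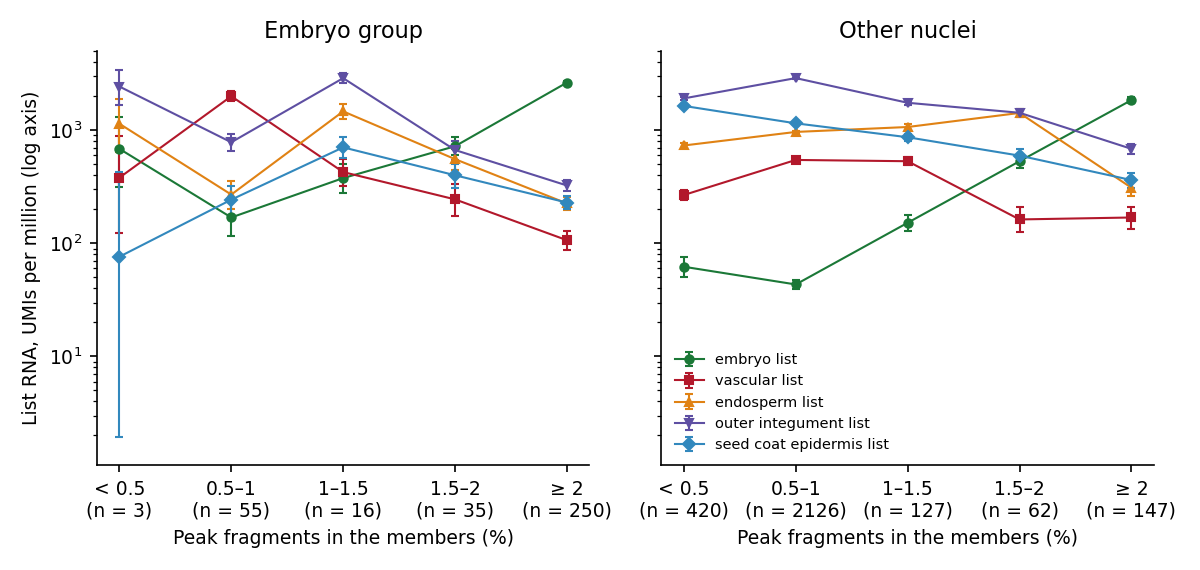
RNA of 5 marker lists (vertical, CPM, log axis, bars are 95% Poisson intervals) in even-numbered nuclei with at least 2000 peak fragments, by the share of peak fragments in the members (horizontal, percent, number of nuclei in brackets), in the embryo group (left) and other nuclei (right). The embryo list reached 1849 CPM in other nuclei with at least 2%, against 43.3 CPM at 0.5% to 1%, and in the embryo group the 55 nuclei at 0.5% to 1% were led by the vascular list.

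The transcription factors and hormone genes of the embryo were high in the same 147 nuclei, set against all 2546 other nuclei with a share under 1%. At least 2-fold higher RNA with 1 CPM added was found in 9.38% of 32327 genes with at least 20 UMIs, with a median ratio of 0.959. The lists of regulators were picked with earlier results of these data known, so their counts past 2-fold are a description and no separate evidence. In the list of seed maturation regulators 6 of 6 genes with enough UMIs were past 2-fold, with a median of 5.18. Glyma.17G005600 (LEC1), a subunit of a CCAAT-binding factor, had 102.9 CPM in the 147 nuclei, against 8.50 CPM, 12.1 times as much (8.52 to 16.96). Glyma.18G176100 (ABI3), a B3 factor of the abscisic acid response, had 221.9 CPM, against 33.8 CPM, 6.56 times as much (5.28 to 8.10). Glyma.19G100900 (FUS3), a B3 factor of seed filling, had 36.3 CPM, against 15.9 CPM, 2.28 times as much (1.33 to 3.70), and was the lowest of the 6. Glyma.03G080700 (NF-YB6) had 1 UMI in the 147 nuclei and 3 UMIs in the others, too few to compare.

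Gibberellin synthesis showed the same pattern, with 6 of 6 genes past 2-fold. These 6 include KAO1, a gene of the rule, and GA1, a gene of the embryo list, and neither is separate support. Glyma.03G154700 (GA1) had 157.3 CPM in the 147 nuclei, against 2.14 CPM, 73.4 times as much (47.3 to 116.6). Glyma.15G002200 (GA3, ent-kaurene oxidase) had 50.4 CPM, against 2.59 CPM, 19.5 times as much (11.2 to 33.5). Glyma.03G019800 (GA20OX2, a late oxidase of the pathway) had 38.3 CPM, against 4.51 CPM. Glyma.09G029400 (KAO1) had 375.1 CPM, against 76.3 CPM, but the rule itself kept nuclei rich in this gene out of both sets. Both GA3OX1 genes, for the step that makes active gibberellin, had 0 UMIs in the 147 nuclei, which allows up to 7.44 CPM by counting error. They were hardly detected elsewhere, with 0 UMIs each in the embryo group and 2 and 0 UMIs over all other nuclei.

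In the list of pattern factors, in which the oil regulator WRI1 was counted too, 9 of 10 genes with enough UMIs were past 2-fold. In 7 of them the interval of the ratio lay above 1. The other 2, Glyma.11G210800 (WOX9) with 3 UMIs and Glyma.02G056600 (HAN) with 2 UMIs in the 147 nuclei, had ratios of 3.15 (0.61 to 10.3) and 2.73 (0.31 to 11.2). Glyma.08G227700 (WRI1), which switches on oil synthesis genes in Arabidopsis, had 98.8 CPM in the 147 nuclei, against 2.88 CPM, 34.3 times as much (22.0 to 53.6). Glyma.13G157800 (YAB5) had 42.4 CPM, against 1.48 CPM, and Glyma.18G220100 (SCR), a regulator of the ground tissue, had 38.3 CPM, against 1.63 CPM. The PLETHORA-like gene Glyma.17G062600 (AIL5) had 52.4 CPM, against 17.01 CPM, 3.08 times as much (1.97 to 4.63). The second WOX9 gene, Glyma.13G172700, had 0 UMIs in the 147 nuclei and 21 UMIs in the others, a difference within counting error at this depth (ratio 0 to 5.24).

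Part of the embryo group had a share in the members no higher than that of other nuclei. Of 359 embryo nuclei with at least 2000 peak fragments, 250 had a share of at least 2% in the members, and 58 a share under 1%. In the 55 nuclei with 0.5% to 1% the embryo list stood at 169.5 CPM (115.9 to 239.2), against 2643 CPM (2543 to 2747) in the 250 nuclei, and the vascular list at 2002 CPM (1805 to 2214), against 106.7 CPM (87.2 to 129.1). The bZIP9 gene Glyma.06G079800 was detected in 60.3% of the 58 nuclei and in 4.40% of the 250, and the YAB1 gene Glyma.01G137200 in 3.45% of the 58 and 47.6% of the 250. Glyma.17G045800, 1 of the genes in the rule, had 1758 CPM (1580 to 1951) in the 58 nuclei and 1911 CPM (1826 to 1999) in the 250, with intervals that overlap. Glyma.11G176200, by contrast, had 302.1 CPM (231.1 to 388.0) in the 58 nuclei, against 1247 CPM (1178 to 1318). Glyma.09G029400 (KAO1) was lower in the 58 nuclei too, at 747.7 CPM (633.2 to 877.0), against 1297 CPM (1227 to 1370). RNA and chromatin of these nuclei thus went against the label of the group. In the 16 embryo nuclei with a share of 1% to 1.5% the embryo list stood at 377.9 CPM. The outer integument list stood at 2892 CPM there and the endosperm list at 1471 CPM. The ratios above are averages over all these kinds of nuclei. Measured without nuclei of either side that met a list of another tissue, the same members had 2.43% of the peak fragments of the embryo group and a ratio of 2.56.

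The members were narrower than tested peaks as a whole, though not than the peaks with the lowest ratios, and lay closer together. Their median width was 1872.5 bases, against 2252 bases for all tested peaks and 1625.5 bases for the 1000 peaks with the lowest ratios. The share of tested peaks that were members was lowest on chromosome 20, at 1.20%, and highest on chromosome 14, at 2.44%. These 2 chromosomes were picked by that value, and a difference between chromosomes was not tested. Chromosome 2 had 74 members, the most of any, and 7 lay on unplaced scaffolds. Within 25% of a chromosome's length from either end, where genes are dense in soybean, lay 81.1% of the members, against 77.5% of all tested peaks and 73.4% of the 1000 with the lowest ratios. Another member lay within 10 kb of 216 members, against 98 for the next 1000 peaks in rank and 100 for the 1000 lowest, each taken with its own set. No interval is given for these shares and counts, as neighbouring peaks are not independent.

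The neighbours formed 99 runs with gaps of at most 10 kb, 17 of them of 3 or more members. The longest run had 4 members within chr12:35202195-35225408 and 77.2 FPM in the embryo group, against 24.1 in other nuclei, a ratio of 3.20 (2.85 to 3.602). Among the runs of 3, chr13:38428068-38435599 had the highest ratio, with 70.7 FPM in the embryo group and 16.6 in other nuclei, 4.25 times as much (3.73 to 4.83). It was followed by the runs of 3 at chr3:32736948-32747229, with a ratio of 4.18 (3.73 to 4.69), and at chr19:39130616-39147585, with a ratio of 4.14 (3.62 to 4.73). These runs were chosen by their number of members and then by their ratio, after the values were seen.

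Fragments in the members were short in the embryo. Fragments under 100 bases, which come from DNA without a nucleosome, made up 48.9% (48.6% to 49.2%) of those in the members in the embryo group, against 44.5% (44.3% to 44.7%) in other nuclei. Over all tested peaks the shares were 45.0% and 43.1%. Fragments of 180 to 250 bases, the length of DNA around 1 nucleosome, made up 13.3% in the members in the embryo group, against 15.4% in other nuclei, and 15.1% and 14.9% over all tested peaks. Median lengths in the members were 102 bases in the embryo group and 114 bases in other nuclei.

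Insertion peaked at the summit in both kinds of nuclei, while the ratio between them was higher 100 to 300 bases beside the summit than at it. Each summit was placed on the insertion ends of all odd-numbered nuclei together, embryo group and others. The part of this placing in the ratio at the summit was not tested. Around summits found in the odd-numbered nuclei, the members had 53.0 insertion ends per kb of sequence and per 1000000 peak fragments within 100 bases in the embryo group, against 18.8 in other nuclei, a ratio of 2.82 (2.80 to 2.85). Within 20 bases the ratio was 2.72 (2.66 to 2.77). Between 100 and 300 bases away the members had 25.99, against 8.43, a ratio of 3.08 (3.05 to 3.11). Between 800 and 1000 bases away they still had 7.92, against 3.11, a ratio of 2.54 (2.497 to 2.586). Over 55658 tested peaks the ratios were 1.04 within 100 bases, 0.98 at 100 to 300 bases and 0.97 at 800 to 1000 bases. The difference at the members thus reached at least 1000 bases to either side, although their median width was under 2000 bases. Neighbouring peaks in that range were not left out.

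**Figure D5:**
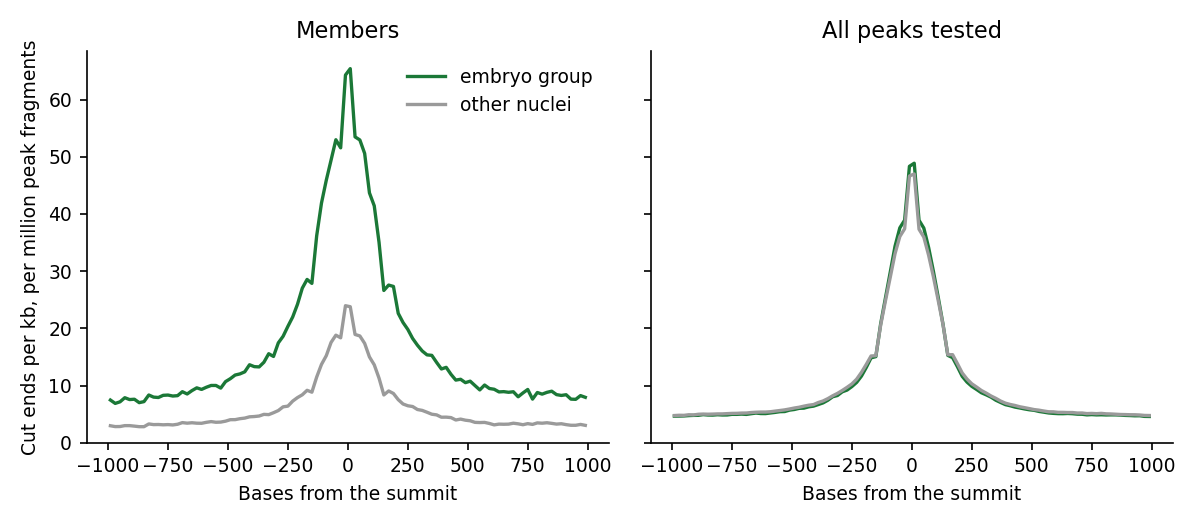
Insertion ends per kb of sequence and per 1000000 peak fragments, averaged over summits (vertical), by distance from the summit in bases (horizontal), in bins of 20 bases, for the members (left) and all tested peaks (right), even-numbered nuclei. The members had 53.0 within 100 bases in the embryo group (green) and 18.8 in other nuclei (grey), while over all tested peaks the lines nearly coincide.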

How the data were processed

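Nuclei of pooled cotyledon-stage seeds were assayed with 10x Multiome. Per the labels, the authors used bcl2fastq 2.20.0.422, Cell Ranger ARC 1.0 and Seurat 4.1.1. The methods of the study give the Wm82.a2.v1 build and removal of background RNA with SoupX. The RNA values are deposited as whole-number UMI counts without normalization, and the fragments with read-pair counts, with duplicates collapsed. Of 30571536 stored RNA entries, 5558393 were 0. The RNA counts may therefore be those left after removal of background RNA, and their intervals do not hold that step. Peaks were called over the whole library, with parameters not given in the sources used here.

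In RNA, 39881831 UMIs were counted (median 2945.5 per nucleus) and the ATAC library 113501985 fragments in nuclei (90.3% of all, median 7840 per nucleus, range 129 to 294125). A fragment counted once for each peak it overlapped by 1 base. The minimum of 200 fragments was read as the total over odd-numbered nuclei. Levels have exact Poisson intervals, shares Clopper-Pearson intervals and ratios exact conditional binomial intervals (scipy 1.17.1). The steps that choose members were run on simulated counts with known fold changes. The changed peaks there had more fragments than many members, so this run does not test the choice of weaker peaks. No doublets were called.

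Members and lists were chosen with earlier results of these data known. Peaks named are the 10 highest by odd-numbered ratio, the 10 with most odd-numbered embryo fragments, 3 on each side of the limit, the widest, the narrowest and the 5 lowest in held-out nuclei; runs were named by size. The classes of member share, the minimum of 2000 peak fragments and the depth for thinning were set after the data were seen. No genome or annotation of this build was used, so genes beside the members and sequence motifs are not analysed here.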

Additional observations from a re-analysis of the deposited data

How the results depend on the processing

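The ratio of the members in the embryo group to that in other nuclei (2.85) and their share of the peak fragments of the embryo group (2.29%) stayed above the level of other nuclei under every alternative run, but moved beyond counting error under nearly all. With members chosen anew each time, the ratio was 2.68 and the share 1.97% with group limits of 3 UMIs and 10 per 10000, 2.72 and 2.40% with 10 UMIs and 40 per 10000, and 2.73 and 2.15% with odd- and even-numbered nuclei exchanged. At least 500 fragments a peak gave 2.04 and 3.57%, no minimum 3.68 and 1.43%, and 10 added to both levels 2.49 and 3.13%. Without nuclei under 3000 fragments they were 2.83 and 2.32%, without the highest 5% of nuclei by UMIs 2.69 and 2.56%, and without the embryo surface and Glyma.08G021700 nuclei among the others 2.87 and 2.37%. Without nuclei past the limits of another tissue's list they were 2.17 and 3.30%, and 2.56 and 2.43% where the members were kept. The ratio alone was 2.99 with levels scaled by all fragments, 2.94 as a mean over nuclei, 3.39 for 500 members and 2.38 for 2000 members. The share of members at least 2 times as open (88.3%, against 2.81% of tested peaks) was 43.6% with 500 fragments a peak (against 1.76%), 56.3% without nuclei of another tissue's list and members chosen anew (against 2.41%), and 27.8% at a ratio of 3 (against 0.505%). The first 2 settings change which peaks can be members. Counting only fragments with an end inside the peak moved the ratio, the share of fragments and the share of members by less than counting error. Added after the data were seen, a minimum of 200 fragments over all nuclei gave 3.40 and 1.69%, a group from the embryo list 3.08 and 2.67% with members chosen anew, and 3.08 and 2.67% with the members kept. The share in embryo-list nuclei outside the group (2.68%) was 2.59% with limits of 3 UMIs and 10 per 10000. The genes beside the members and the motifs were not run, with their alternatives, for want of a genome of this build.

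No paired analysis was possible because the labels give 1 RNA and 1 ATAC library, both numbered replicate 1, and no replicate of either. With 1 library of each kind, the intervals hold counting error and not the spread between seeds or preparations. A member had a median of 102 fragments in the embryo group and 247 in other nuclei, so single ratios near 2 are uncertain, and levels in the rarer kinds of nuclei rest on few fragments.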
